A study of Mus musculus with 12 samples.

Results

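The response of EL-4 T cells to the phorbol ester PMA and the calcium ionophore ionomycin (together P/I) was measured with protein synthesis intact, on 6 of the 12 Affymetrix Mouse Gene 1.0ST arrays of the series. Of the 35399 probe sets on the arrays, the 21789 that pair with exactly 1 gene symbol were read, and increases and decreases were given equal weight. The first group, called P/I-stimulated, held EL-4 cells that had DMSO, the solvent, for 30 min and were then stimulated with PMA at 10 ng/ml and ionomycin at 1 µM for 4 h (3 arrays). The second, called unstimulated, held EL-4 cells with the same DMSO pretreatment and no stimulus (3 arrays). Whether these cells also stayed in culture for the 4 h is not given in the sources used here. If they did not, time in culture cannot be told apart from P/I. The other 6 arrays held cells that had cycloheximide (CHX) at 10 µg/ml in place of DMSO, 3 of them P/I-stimulated and 3 unstimulated, and their P/I effect is set beside that in DMSO below. They also entered the estimate of the spread behind each call in DMSO, and a fit to the 6 DMSO arrays alone called 1733 probe sets higher and 1504 lower with P/I. Every group came from EL-4, a single mouse T lymphoma line, so the replicates are separate cultures of 1 cell line and not separate animals.

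PMA stands in for diacylglycerol and switches on protein kinase C, and through it the Ras and MAP kinase pathway and NF-κB. Ionomycin lets calcium into the cell, where calcineurin dephosphorylates NFAT and lets it enter the nucleus. Together they bypass the T cell receptor and drive the genes of T cell activation, while the genes of resting lymphocytes, such as the interleukin 7 receptor, are known to be turned down on activation.

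Values are log2 robust multichip average (RMA) values, so a difference of 1 is a doubling of signal. A probe set was called when limma gave it a Benjamini-Hochberg adjusted p under 0.1, in a fit to the group means of all 12 arrays. Arrays correlated at 0.987 to 0.995 within the P/I-stimulated group and at 0.991 to 0.997 within the unstimulated group. The 8 T cell markers measured, among them Cd3g, Cd3e, Thy1 and Zap70, had unstimulated values of at least log2 7 with a median of log2 10.37, and the 7 myeloid markers had a median of log2 4.87. The 4 erythroid and fibroblast markers measured had a median of log2 6.23, and 0 of them reached log2 7. Of 5 B cell markers, Cd79b was the 1 with an unstimulated value of at least log2 7. Each group mean rests on 3 arrays. Each SE comes from limma, with 1 estimate of the spread shared by all 4 groups, the CHX arrays included. It is therefore not the spread of the DMSO arrays alone, and for Il2 the SE is 0.60 while the DMSO arrays had SDs of 0.41 and 0.12.

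Almost as many probe sets fell as rose. With P/I 2042 probe sets (9.37% of those tested) were higher and 1910 (8.77%) were lower. The increases reached much further. The 530 probe sets that rose by more than 2-fold stood against 304 that fell by more than 2-fold, 130 against 10 passed 4-fold, and 55 against 0 passed 8-fold. The median call was a log2 change of 0.66 among the increases and -0.60 among the decreases. The P/I-stimulated arrays lay wholly above the unstimulated arrays for 1916 of the increases and wholly below them for 1796 of the decreases. Over all probe sets tested, 12.2% were wholly above and 13.0% wholly below, calls included.

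Arrays of replicate numbers 1 and 2 moved together within their number, and those of number 3 hardly more than arrays of different numbers. With the number as a block in the same fit 2919 probe sets were higher and 2923 lower. Within replicate numbers 1, 2 and 3 the median change of the increases was log2 0.70, 0.64 and 0.69. That of the decreases was log2 -0.48, -0.60 and -0.72.

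**Figure D1:**
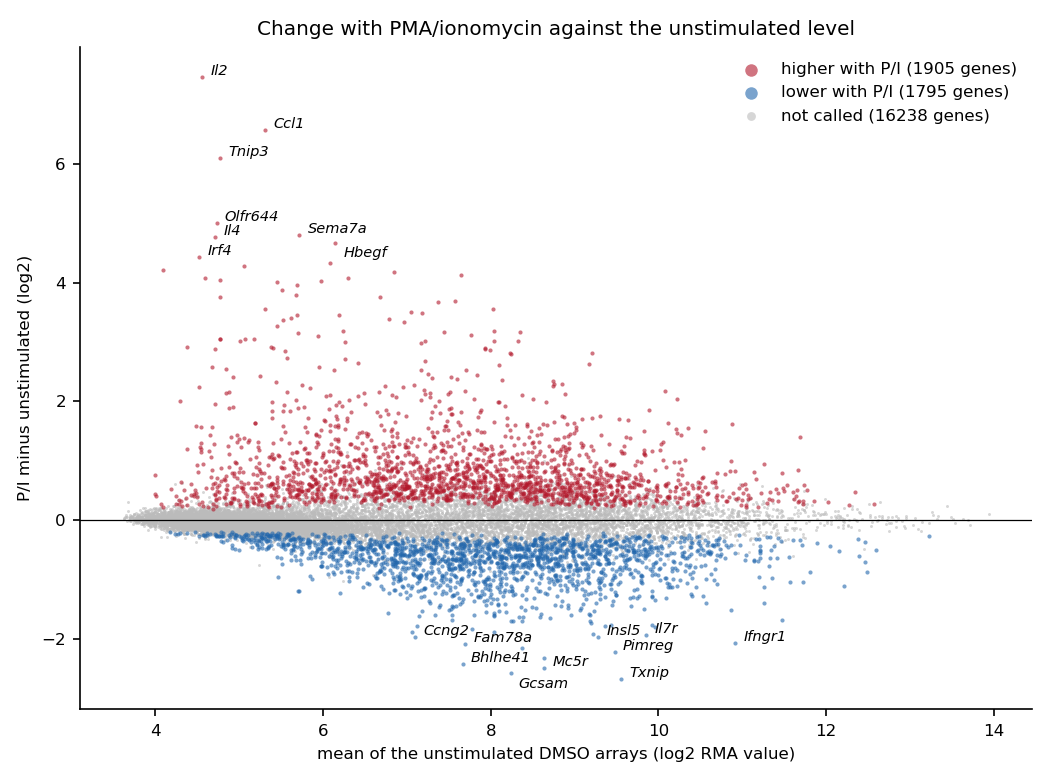
Change with P/I (y axis, log2, P/I-stimulated minus unstimulated) against the mean of the 3 unstimulated arrays (x axis, log2 RMA value), 1 point for each of 19938 genes. The 1905 increases (red) reach log2 7.46, at Il2, and the 1795 decreases (blue) reach log2 -2.67, at Txnip.

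Increases and decreases were counted along the unstimulated signal. Of the 5427 probe sets with an unstimulated value from log2 4 to 5, 134 rose and 43 fell, and 48 rose but 0 fell by more than 2-fold. These values lie at the low end of the scale, where a decrease of that size could not be measured. From log2 8 to 9, where 2450 probe sets lay, 417 rose and 453 fell, 104 and 87 of them by more than 2-fold. From log2 9 to 10 decreases outnumbered increases, at 319 against 258 of 1718 probe sets. Probe sets differ in how brightly they hybridize, so these bins order signal and not the number of mRNA molecules.

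Cytokine and transcription factor genes made up most of the 15 largest increases. Il2, the T cell growth factor, measured log2 12.36, 11.55 and 12.13 in the P/I-stimulated arrays, against 4.42, 4.57 and 4.67 in the unstimulated arrays, a log2 change of 7.46 ± 0.60 (SE, n = 3 arrays per group; adjusted p = 7.40e-06 from limma). The groups were far apart, and no P/I-stimulated array came near the unstimulated range. The unstimulated means of Il2, Tnip3, Olfr644, Il4, Irf4, Il6 and Ccl3 lay below log2 4.87, the median of the myeloid markers. Those of Ccl1, Csf2, Sema7a, Hbegf and Egr2 lay above that but below log2 6.23, the median of the erythroid and fibroblast markers. None of these genes was thus shown to be above background before stimulation. The sizes of their changes depend on that background and have no settled order. Csf2, which encodes the growth factor GM-CSF, measured log2 9.81, 7.99 and 10.21 with P/I, against 4.91, 5.08 and 5.18 without. Replicate 2 was the lowest of the P/I-stimulated arrays there, and also for the cytokine Il6, with log2 9.12, 7.47 and 8.28 with P/I against 4.07, 4.06 and 4.13 without, and for the lymphocyte transcription factor Irf4, with log2 9.47, 8.21 and 9.17 with P/I against 4.65, 4.50 and 4.43 without. It was the lowest for Il4 and Ccl3 as well. Other large increases spread less. Tnfsf8, which encodes the CD30 ligand, measured log2 11.75, 11.72 and 11.86 with P/I, against 8.06, 7.30 and 7.57 without, and Tnfsf14, which encodes the cytokine LIGHT, rose by log2 4.08 (SE 0.40). The zinc finger factor Egr2 rose by log2 4.32 and Esm1, known as a secreted proteoglycan of endothelial cells, by log2 4.17.

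**Figure D2:**
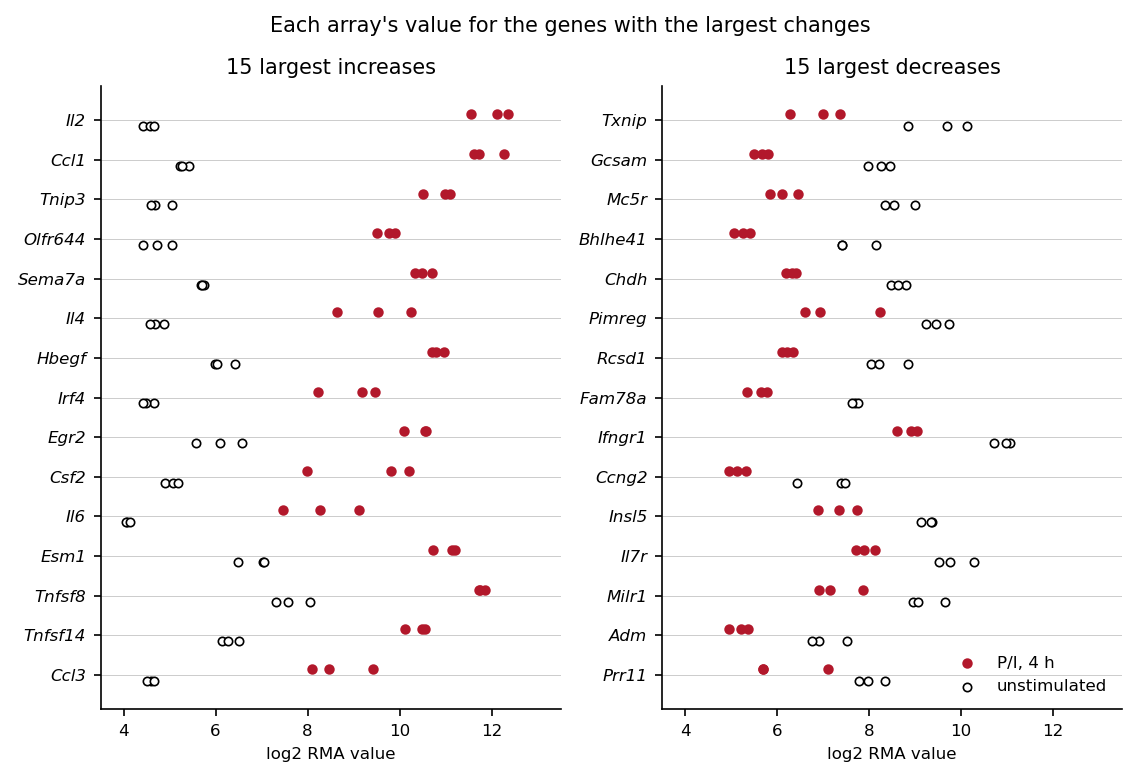
Values of single arrays (x axis, log2 RMA value) for the 15 genes with the largest increases (left) and the 15 with the largest decreases (right). Filled points are the 3 P/I-stimulated arrays and open points the 3 unstimulated arrays, and the groups do not overlap for any of the 30 genes, as the choice of genes required.

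The promoter of Il2 is shown because it is a well-studied target of NFAT and had the largest measured change. The sequence is that of RefSeq (build GRCm38.p6), the 250 bases before the start of transcription at chr3:37125955-37126204 on the minus strand, 5′ to 3′, with the NFAT core letters GGAAA, on either strand, in capitals.
Il2: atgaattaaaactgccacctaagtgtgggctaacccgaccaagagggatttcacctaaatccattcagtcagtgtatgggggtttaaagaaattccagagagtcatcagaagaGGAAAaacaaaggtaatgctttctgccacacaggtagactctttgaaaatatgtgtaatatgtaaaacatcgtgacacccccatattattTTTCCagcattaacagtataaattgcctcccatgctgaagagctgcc
These 5 letters are common. They are in 60.2% of the 12977 promoters of genes tested that have a single entry in the table (300 bases each, 250 before and 50 after the start), and in 61.1% of those of genes that rose by more than 2-fold.

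Of 29 surface molecules of activation, costimulation and checkpoints 20 rose and 0 fell, and of 27 cytokines and chemokines 17 rose and 0 fell. Cd69, the early activation antigen, measured log2 11.58, 11.01 and 11.24 with P/I, against 7.41, 7.71 and 7.61 without. Cd27, a costimulatory receptor of the TNF receptor family, measured log2 8.87, 9.01 and 9.05 with P/I, against 6.18, 6.41 and 6.20 without, and its groups were likewise far apart. The interleukins Il5 and Il13, products of type 2 helper T cells, rose by log2 2.24 and 1.15, and the growth factor Csf1 by log2 3.87.

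The largest decreases brought together genes of metabolism, of cytokine signalling and of cell division. Txnip, which binds thioredoxin and holds back glucose uptake, measured log2 6.28, 7.36 and 7.0 in the P/I-stimulated arrays, against 8.85, 9.69 and 10.12 in the unstimulated arrays, a log2 change of -2.67 ± 0.43 (SE; adjusted p = 0.00123 from limma). The ranges were more than 1 log2 unit apart although each group spread over more than 1. Gcsam, a signalling adaptor of germinal centre lymphocytes, measured log2 5.81, 5.50 and 5.68 with P/I, against 7.99, 8.26 and 8.46 without (log2 change -2.57 ± 0.17, SE). The transcriptional repressor Bhlhe41 measured log2 5.07, 5.25 and 5.41 with P/I, against 8.16, 7.42 and 7.42 without. Both genes were low in every stimulated array. The melanocortin receptor Mc5r fell by log2 2.49, Chdh, the mitochondrial enzyme that oxidizes choline, by log2 2.32, Rcsd1, a binding protein of the actin-capping protein CapZ, by log2 2.15. The log2 change of Fam78a was -2.09. Ccng2, which encodes cyclin G2, a gene of non-dividing cells, fell by log2 1.96.

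The promoter of Txnip, the gene with the largest decrease, is shown from the same table. The 250 bases before its start are at chr3:96557707-96557956 on the plus strand. They hold 2 copies of CCAAT (either strand), the letters that NF-Y binds, which are in capitals. The forkhead letters GTAAACA lie between them, in lower case. GTAAACA was in 3.11% of all promoters, and in 3.31% and 3.65% of those of genes that fell or rose by more than 2-fold. The exact E-box letters CACGTG are absent. Imperfect E-boxes, such as the CACGAG letters present here, were not searched, so a site for E-box factors is not excluded.
Txnip: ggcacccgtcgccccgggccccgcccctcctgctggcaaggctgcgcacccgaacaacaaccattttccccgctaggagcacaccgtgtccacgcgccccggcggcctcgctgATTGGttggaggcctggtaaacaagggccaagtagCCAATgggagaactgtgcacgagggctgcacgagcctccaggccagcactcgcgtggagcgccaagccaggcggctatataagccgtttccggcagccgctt
CCAAT was in 38.7% of all promoters, in 46.4% of those of genes that fell by more than 2-fold and in 40.7% of those of genes that rose by more than 2-fold.

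Gene lists, described next, were counted over 19938 genes with 1 probe set each, of which 1905 (9.55%) rose and 1795 (9.00%) fell, with a median log2 change of -0.03. Calls were more common among brighter probe sets, at 17% higher and 18.5% lower from log2 8 to 9 unstimulated. The lists of T cell receptor, lysosome and histone enzyme genes have their median unstimulated value there, at log2 8.66, 8.48 and 8.84. So do those of NFAT and calcium entry, T cell quiescence, and G1 and E2F genes, at log2 8.4, 8.17 and 8.24. The shares of all these lists should be read beside those of that bin. Some lists moved one way and others were mixed.

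**Figure D3:**
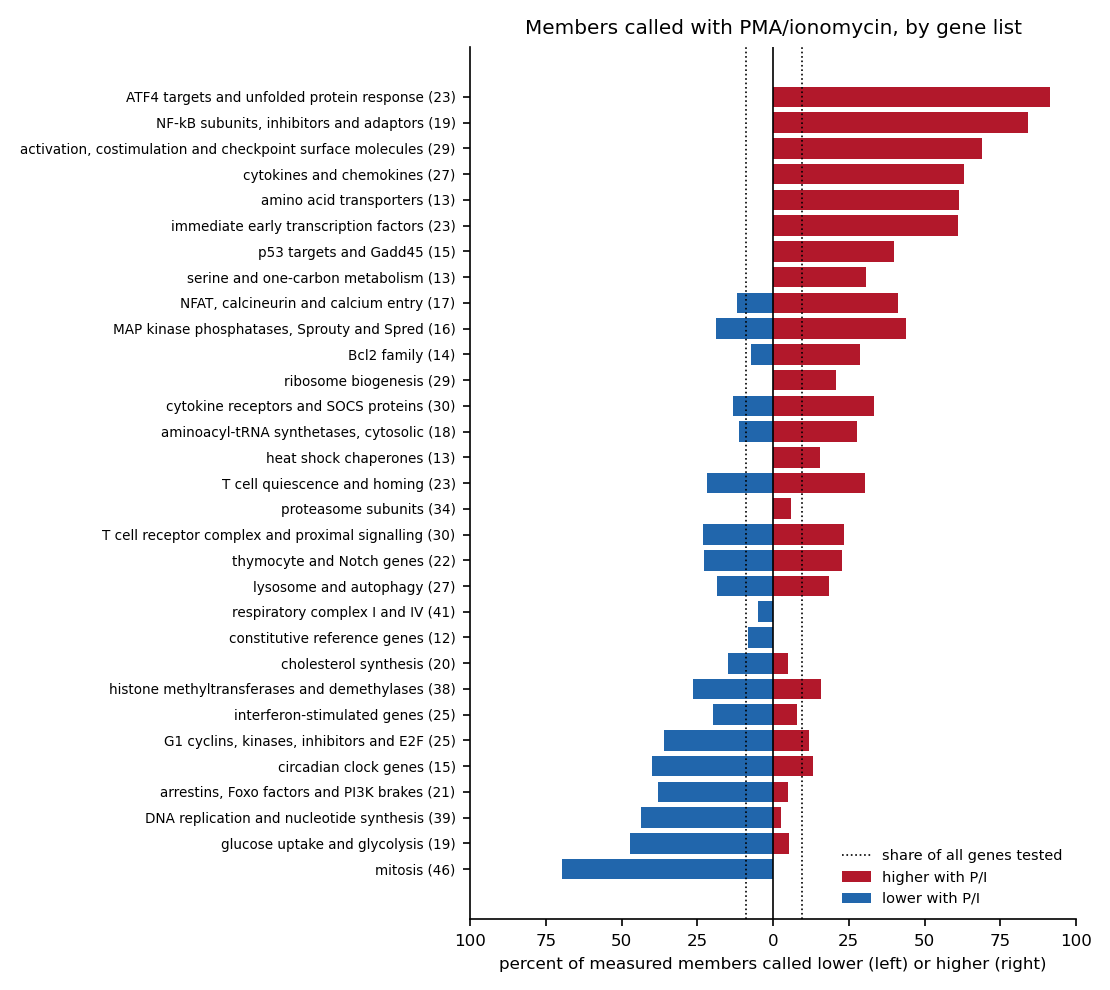
Share of members, in percent, of 31 gene lists (rows, with the number of genes measured) called higher with P/I (red, to the right) or lower (blue, to the left). Dotted lines mark the share of all genes tested in each direction, 9.55% and 9.00%, and the lists run from ATF4 targets and the unfolded protein response at the top to mitosis at the bottom.

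Genes of mitosis fell. Of 46 genes of the spindle, the kinetochore and cytokinesis, 32 were lower with P/I, 19 of them by more than 2-fold, and 0 were higher, with a median log2 change of -0.90. Racgap1, which organizes the central spindle, measured log2 9.79, 8.98 and 9.01 in the P/I-stimulated arrays, against 10.53, 10.50 and 10.55 in the unstimulated arrays (log2 change -1.27 ± 0.17, SE; adjusted p = 0.000310 from limma). Cdc25b, a phosphatase that activates Cdk1, measured log2 8.27, 7.59 and 7.21 with P/I, against 9.21, 8.98 and 9.11 without. Mki67, which coats mitotic chromosomes, measured log2 10.97, 10.76 and 10.30 with P/I, against 11.73, 11.77 and 11.66 without. In each of these genes replicate 1 was the highest of the 3 stimulated arrays, and the groups did not overlap. Plk1, a kinase of mitotic entry, Cenpf, a kinetochore protein, and Aspm, a protein of the spindle poles, fell by log2 1.30, 1.58 and 1.63. Cdk1 (log2 -0.11), Mad2l1 (-0.05), Bub3 (-0.05) and Ttk (0.03), a kinase of the spindle checkpoint, were not called.

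The size of this decrease differed between replicates. The median log2 change over the 46 genes was -0.47 in replicate 1, -1.12 in replicate 2 and -1.15 in replicate 3. Without P/I-stimulated replicate 3, 21 members were lower, and 9 were lower without the 4 arrays of replicate 2 or without the 4 of replicate 3, with medians of log2 -0.81 and -0.82. With the replicate block 40 were lower. In RNA of a whole culture, fewer cells in mitosis and less mRNA per cell cannot be told apart.

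**Figure D4:**
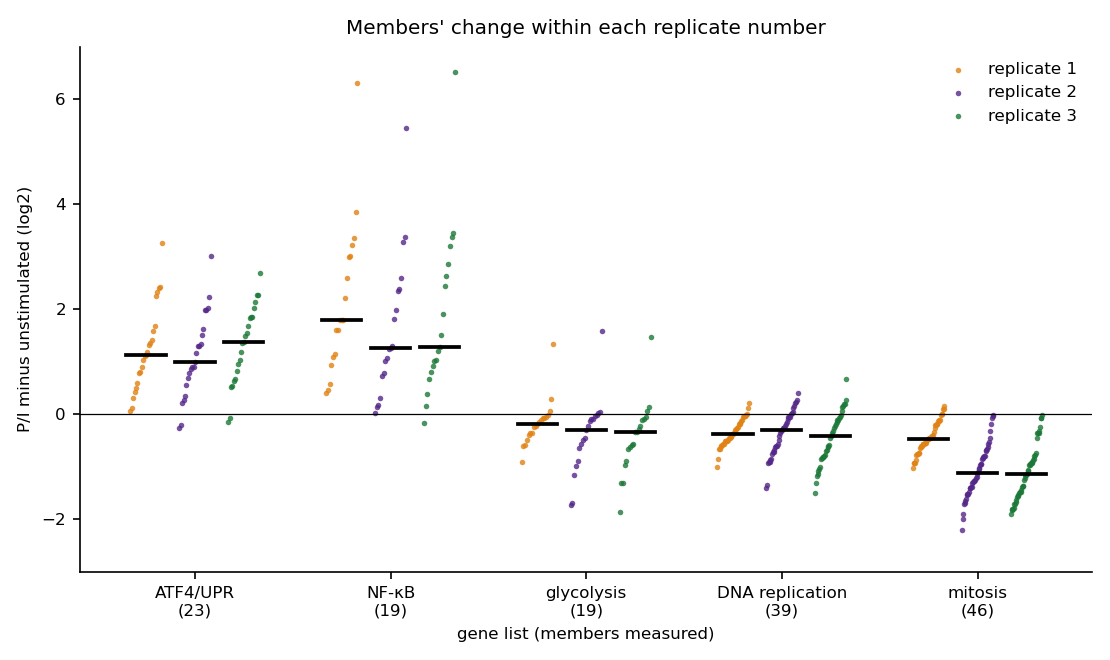
Change with P/I of each measured member (y axis, log2, P/I-stimulated minus unstimulated array of the same replicate number) in 5 gene lists (x axis, members measured in brackets; UPR, unfolded protein response). Points are genes, colours are replicate numbers and bars are medians, and the mitosis bars lie at log2 -0.47, -1.12 and -1.15.

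Many mitosis genes share short promoter sequences, and the promoters of Ccnb2, which encodes cyclin B2 (log2 change -0.98), and Mki67 (-1.05) are shown for that reason. They are the 250 bases before the start, at chr9:70421555-70421804 and chr7:135716380-135716629, both on the minus strand, with CCAAT (NF-Y) and TTTGAA (the cell cycle homology region, CHR), on either strand, in capitals.
Ccnb2: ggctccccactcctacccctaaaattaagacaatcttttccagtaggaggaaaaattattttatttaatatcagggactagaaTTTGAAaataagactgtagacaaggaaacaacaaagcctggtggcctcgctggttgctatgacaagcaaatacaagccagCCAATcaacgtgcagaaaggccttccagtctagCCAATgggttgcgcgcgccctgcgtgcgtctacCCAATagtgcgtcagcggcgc
Mki67: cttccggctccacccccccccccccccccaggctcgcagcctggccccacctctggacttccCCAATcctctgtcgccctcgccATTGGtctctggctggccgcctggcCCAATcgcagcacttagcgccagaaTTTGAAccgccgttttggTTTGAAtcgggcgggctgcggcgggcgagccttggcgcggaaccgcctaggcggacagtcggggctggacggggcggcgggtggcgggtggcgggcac
Each holds 3 copies of CCAAT, and TTTGAA is in Ccnb2 once, at position -167 from the start, and in Mki67 2 times, at -116 and -98. Of the 35 mitosis genes with a single promoter entry, 71.4% held TTTGAA and 74.3% held CCAAT. Of all 12977 promoters, 15.7% and 38.7% did, and of those of all genes that fell, 13.3% and 40.7%. Of those of genes that fell by more than 2-fold, which include mitosis genes, 20.4% and 46.4% did. Among genes that rose by more than 2-fold the shares were 9.73% and 40.7%. The 2 sets of letters do not overlap, and the mitosis genes were chosen by function. A match is a run of letters and was not tested as a binding site.

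Genes of S phase and of the G1 to S transition were counted next. Of 39 genes of DNA replication and nucleotide synthesis 17 were lower and 1 was higher (median log2 -0.35). Thymidine kinase Tk1 measured log2 9.15, 8.47 and 8.32 with P/I, against 10.14, 9.82 and 9.82 without (log2 change -1.28 ± 0.21, SE), and the polymerase subunits Pold1 and Pole fell by log2 1.05 and 0.91. The clamp gene Pcna (log2 0.13), Mcm4 (-0.14) and Rrm2 (-0.06) were not called. Without P/I-stimulated replicate 3, 9 of the 39 were lower. Of 25 G1 cyclins, kinases, inhibitors and E2F factors, 9 were lower and 3 higher. Rbl2, the pocket protein p130, measured log2 7.98, 7.43 and 7.62 with P/I, against 9.30, 9.48 and 9.50 without (log2 change -1.76 ± 0.14, SE). E2f8, a repressor of E2F genes, fell by log2 1.60 and cyclin D3, encoded by Ccnd3, by log2 1.06. The kinase inhibitor Cdkn2b rose by log2 1.40 and Ccnd2 by log2 0.65.

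Of 19 genes of glucose uptake and glycolysis 9 were lower and 1 was higher (median log2 -0.38). Without unstimulated replicate 2 the median was log2 -0.15 with 6 lower, and without unstimulated replicate 3 it was also -0.15, with 7 lower. Slc2a1, the glucose transporter GLUT1, measured log2 11.34, 10.59 and 11.41 in the P/I-stimulated arrays, against 11.93, 12.32 and 12.38 in the unstimulated arrays (log2 change -1.10 ± 0.22, SE; adjusted p = 0.00491 from limma). Pdk1, a kinase that keeps pyruvate out of the mitochondrion, measured log2 8.43, 8.63 and 7.99 with P/I, against 9.34, 9.80 and 9.86 without. The groups were apart in both genes. The phosphofructokinase subunits Pfkl and Pfkm fell by log2 0.96 and 0.86 and triose phosphate isomerase, Tpi1, by log2 0.64, while Ldha (log2 -0.05), Aldoa (-0.05) and Hk1 (-0.03) were not called. The member that rose was Pfkfb3, whose product makes the activator of phosphofructokinase, with log2 8.0, 7.88 and 7.82 with P/I, against 6.65, 6.29 and 6.35 without.

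Genes that damp the phosphatidylinositol 3-kinase (PI3K) pathway or are targets of the Foxo factors included 8 of 21 that were lower and 1 that was higher. Besides Txnip and Ccng2 they were Pik3ip1, an inhibitor of PI3K (log2 -1.54), the arrestin genes Arrdc3 (-1.01) and Arrdc1 (-0.63), the sestrins Sesn1 (-0.97) and Sesn3 (-0.53) and Foxo3 itself (-0.93). Phlpp1, a phosphatase of Akt, rose by log2 1.48. The call for Pik3ip1 was lost without unstimulated replicate 2 (adjusted p = 0.111 from limma).

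Of 15 genes of the circadian clock 6 were lower and 2 higher, with a median log2 change of 0.06. The heme receptor gene Nr1d1 measured log2 5.83, 5.74 and 5.82 with P/I, against 7.44, 6.71 and 6.83 without. The PAR bZip factors Dbp and Tef fell by log2 0.98 and 0.91, and Nr1d2 by log2 0.80. Nfil3, which represses through the same D-box element that Dbp and Tef activate, measured log2 9.89, 9.81 and 10.11 with P/I, against 7.30, 7.51 and 7.76 without, a log2 change of 2.41 ± 0.28 (SE). The core genes Arntl (log2 0.44), Clock (-0.32), Cry1 (0.20) and Per2 (0.32) were not called.

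Cytokine receptor genes moved in both directions, with 10 of 30 receptor and SOCS genes higher and 4 lower. The chain that binds interferon gamma, Ifngr1, measured log2 8.91, 8.62 and 9.04 in the P/I-stimulated arrays, against 10.71, 11.07 and 10.97 in the unstimulated arrays (log2 change -2.06 ± 0.17, SE; adjusted p = 7.32e-06 from limma). The interleukin 7 receptor gene Il7r, a mark of resting T cells, measured log2 7.90, 8.14 and 7.71 with P/I, against 9.52, 10.27 and 9.77 without. Both were lower in each of the 3 stimulated arrays than in any unstimulated one, and Il10rb (log2 -1.31) was the other member that fell by more than 2-fold. The inducible chains of the interleukin 2 receptor went the other way. Il2rb measured log2 7.32, 7.76 and 7.67 with P/I, against 4.69, 4.73 and 4.70 without (log2 change 2.87 ± 0.10, SE), and Il2ra measured log2 7.67, 6.24 and 7.22 with P/I, against 4.83, 5.04 and 4.78 without. Neither was shown to be above background without P/I, so the sizes of these changes depend on that background. Tgfbr1, a receptor of TGF-β, rose by log2 1.66, Cish, an inhibitor of cytokine signalling, by log2 1.49 and Il21r by log2 1.22. With the replicate block 7 members of this list were lower.

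The T cell receptor pathway was split between 7 members that rose and 7 that fell, of 30 measured. The rising ones included the tyrosine phosphatase Ptpn22, with log2 10.43, 10.15 and 10.24 with P/I, against 7.93, 7.78 and 7.81 without, the adaptor Lcp2 (log2 change 1.51), the kinases Fyn (1.40) and Zap70 (1.18), and the ubiquitin ligase Cblb (1.29). Those that fell included Rasgrp1, the Ras activator that phorbol esters bind, with log2 10.72, 9.58 and 10.10 with P/I, against 11.28, 11.29 and 11.20 without, the adaptor Grap2 (log2 -0.96), protein kinase C theta, encoded by Prkcq (-0.89), the phosphatase Ptpn6 (-0.79) and the receptor chains Cd3g (-0.50) and Cd3e (-0.34). Cd3d (-0.10), Cd247 (-0.14), Cd28 (0.26) and Plcg1 (-0.15) were not called.

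Of 23 genes of T cell quiescence and homing, 7 rose and 5 fell. The schlafen gene Slfn2, named in mice for T cell quiescence, rose by log2 3.97, and the T lineage regulators Lef1 and Satb1 by log2 1.92 and 1.46. Myb, a transcription factor of immature lymphocytes, measured log2 8.26, 8.74 and 8.32 with P/I, against 9.72, 9.71 and 9.80 without (log2 change -1.30 ± 0.13, SE), and Elf4, known to restrain T cell proliferation, fell by log2 0.93. The homing regulator Klf2 measured log2 6.73, 7.05 and 6.92 with P/I, against 7.41, 8.60 and 8.32 without (log2 change -1.21, adjusted p = 0.0718 from limma), a call that was lost without any one of 5 of the 6 arrays. Without unstimulated replicate 1, 8 members were lower, and 9 with the replicate block.

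Among signalling genes of the calcium and MAP kinase pathways, calls for increases outnumbered calls for decreases. Of 17 genes of NFAT, calcineurin and calcium entry, 7 were higher and 2 lower. The channel subunit Orai1 measured log2 9.31, 9.22 and 9.55 with P/I, against 6.93, 7.19 and 7.14 without, and Nfatc1 and Nfat5 rose by log2 2.39 and 2.02. Of 16 MAP kinase phosphatases, Sprouty and Spred genes, which feed back on Ras and MAP kinases, 7 were higher and 3 lower. Spry1 measured log2 9.67, 9.47 and 9.76 with P/I, against 6.0, 6.16 and 6.40 without, and Dusp6, a phosphatase of ERK, rose by log2 2.81, while Dusp7, another ERK phosphatase, fell by log2 0.87. Of 19 genes of NF-κB subunits, inhibitors and adaptors, 16 were higher and 0 lower, and the atypical inhibitor Nfkbid measured log2 10.61, 9.96 and 10.33 with P/I, against 7.26, 6.68 and 6.94 without.

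Unfolded protein response and ATF4 target genes showed the highest share of calls, with 21 of 23 higher, 0 lower and a median log2 change of 1.30. Ddit3, the stress transcription factor CHOP, measured log2 9.81, 10.19 and 10.46 with P/I, against 6.55, 7.18 and 7.77 without (log2 change 2.99 ± 0.45, SE; adjusted p = 0.000741 from limma). Hspa5, the chaperone BiP of the endoplasmic reticulum, measured log2 13.00, 13.06 and 13.20 with P/I, against 11.59, 11.77 and 11.70 without. Its groups lay far apart for so bright a probe set. The chaperone cofactors Creld2, Hyou1 and Manf rose by log2 1.75, 1.44 and 1.30, Chac1, an ATF4 target that degrades glutathione, by log2 2.07, and Atf4 itself by log2 0.95. Asparagine synthetase, Asns (log2 -0.10), a known ATF4 target, and Atf6 (-0.07) were the 2 members not called. Of 13 amino acid transporters 8 rose and 0 fell (median log2 0.48), led by the cystine transporter Slc7a11 at log2 1.62, while of 18 cytosolic aminoacyl-tRNA synthetases 5 rose and 2 fell.

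The promoter of Herpud1 (log2 change 2.18), which takes part in the degradation of misfolded proteins, is shown as a member of that list. It is taken from chr8:94386179-94386428, plus strand, with CCAAT on either strand in capitals.
Herpud1: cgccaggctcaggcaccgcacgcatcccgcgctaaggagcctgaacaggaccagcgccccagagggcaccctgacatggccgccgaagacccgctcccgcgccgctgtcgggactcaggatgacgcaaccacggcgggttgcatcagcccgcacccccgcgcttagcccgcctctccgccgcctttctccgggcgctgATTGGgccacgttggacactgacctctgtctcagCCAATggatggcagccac
The 2 copies are at positions -52 and -18 from the start of transcription. The sequence also holds a match to the ATF4 letters, as TTGCATCA on the other strand, left in lower case. CCAAT was in 75% of the 20 promoters of this list that have a single entry, and the ATF4 letters TGATGNAA were in 20.0% of them, against 38.7% and 3.28% of all promoters.

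Among genes of chromatin, 10 of 38 histone methyltransferases and demethylases fell and 6 rose. The H3K9 methyltransferase gene Ehmt2 measured log2 9.01, 8.69 and 8.20 with P/I, against 9.90, 9.87 and 9.99 without. The demethylase gene Kdm4b and the H3K36 methyltransferase gene Nsd1 fell by log2 1.03 and 0.80, and Kmt2e and Kmt2c by log2 1.10 and 0.98. Kdm6b, a demethylase of H3K27, measured log2 10.08, 10.12 and 10.04 with P/I, against 8.16, 7.91 and 8.19 without, and the H3K79 methyltransferase gene Dot1l rose by log2 1.01. The Polycomb genes Ezh2 (log2 -0.41), Suz12 (-0.13) and Eed (-0.15) were not called.

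Of 25 interferon-stimulated genes 5 were lower and 2 higher. The peptide transporter gene Tap1 measured log2 7.89, 7.42 and 7.47 with P/I, against 8.95, 9.29 and 9.29 without (log2 change -1.58 ± 0.18, SE; adjusted p = 0.000105 from limma). The immunoproteasome subunit gene Psmb9 fell by log2 0.72. Mx1 (log2 -0.07), Ifit1 (-0.10) and Stat2 (-0.07) were not called. Of the Bcl2 family 4 of 14 rose and 1 fell, with log2 1.81 for the survival gene Bcl2l1, 0.89 for the death gene Bcl2l11 and -0.49 for Bad, which promotes death. Of 15 p53 targets and Gadd45 genes 6 rose and 0 fell, and the stress gene Gadd45g measured log2 9.90, 10.35 and 10.46 with P/I, against 6.24, 7.69 and 7.73 without.

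Smaller or mixed groups included 22 thymocyte and Notch genes, of which 5 rose and 5 fell. The receptor gene Notch1 measured log2 7.45, 7.30 and 7.30 with P/I, against 5.99, 5.86 and 5.91 without, while Notch2 had a log2 change of -0.61. Runx1, a transcription factor of T cell development, rose by log2 0.95, and the related Runx3 had a log2 change of -0.49. Of 20 cholesterol synthesis genes 3 were lower and 1 higher, a count of decreases that was 7 without unstimulated replicate 1, 1 without unstimulated replicate 2 and 9 with the replicate block. The last reductase of the pathway, Dhcr7, measured log2 7.59, 7.4 and 7.10 with P/I, against 8.82, 9.03 and 9.01 without. Of 27 lysosome and autophagy genes 5 rose and 5 fell, with a log2 change of 0.85 for Tfe3, a factor that drives lysosomal genes, and -0.81 for Npc1, which exports cholesterol from the lysosome. The count of increases was 2 or 3 without any one array other than P/I-stimulated replicate 1, that of decreases was 2 or 3 without P/I-stimulated replicate 3, unstimulated replicate 2 or unstimulated replicate 3, and 10 were lower with the replicate block. Of 13 heat shock chaperones 2 rose, Hspa4l by log2 1.67.

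Among housekeeping complexes, 2 of 34 proteasome subunits rose and 0 fell (median log2 0.21). With the replicate block 12 rose, without unstimulated replicate 1 there were 7, and without P/I-stimulated replicate 1, P/I-stimulated replicate 3, unstimulated replicate 2 or unstimulated replicate 3 there were 0, and 1 without P/I-stimulated replicate 2. Of 41 subunits of respiratory complexes I and IV 0 rose and 2 fell (median -0.01), where the replicate block called 2 higher and 7 lower and 4 were lower without P/I-stimulated replicate 1. Of 12 constitutive reference genes 0 rose and 1 fell (median -0.08). Of 29 ribosome biogenesis genes 6 rose and 0 fell with a median of log2 0.41, a count that ran from 0, without unstimulated replicate 2, unstimulated replicate 3 or P/I-stimulated replicate 3, to 14 without unstimulated replicate 1, and was 1 and 10 without P/I-stimulated replicates 1 and 2. With the replicate block it was 19.

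The CHX arrays gave a second set of 6 arrays in which to read the same calls, with protein synthesis blocked. Both P/I effects were called with the same estimate of the spread, so the calls in CHX are not independent of those in DMSO. In those arrays 2214 probe sets (10.2%) were higher and 2566 (11.8%) lower with P/I. Of the 1910 decreases seen in DMSO, 912 (47.7%) were also lower with P/I in CHX and 74 were higher. Of the 2042 increases, 719 (35.2%) were also higher and 275 were lower. The median change of the decreases was log2 -0.34 in CHX and -0.60 in DMSO, and that of the increases was 0.17 in CHX and 0.66 in DMSO. The difference itself, the interaction, was called for 2980 probe sets (13.7%), among them 525 of the decreases and 1007 of the increases. The same DMSO arrays chose the calls and enter the interaction, which favours smaller effects in CHX, and the time that the unstimulated cells spent in CHX is not given in the sources used here.

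Some decreases were also called in CHX. The P/I effect on Mc5r was log2 -2.48 in CHX and -2.49 in DMSO, that on Fam78a -2.05 and -2.09, that on Bhlhe41 -2.15 and -2.42, that on the vasoactive peptide gene Adm -1.98 and -1.88 and that on Il7r -1.63 and -1.94. None of these 5 had an interaction call, with adjusted p from 0.593 to 0.989 from limma, which does not show that the effects were equal. Other decreases were not seen in CHX. The P/I effect on Txnip was log2 0.53 in CHX and -2.67 in DMSO (interaction 3.20, adjusted p = 0.00628 from limma), and that on Ccng2 was 0.11 and -1.96 (interaction 2.07, adjusted p = 0.00711 from limma). Txnip without P/I measured log2 9.96, 11.29 and 11.51 in CHX, each above the DMSO array of its number, at 8.85, 9.69 and 10.12. Arrdc3 was higher with P/I in CHX, by log2 1.31, and lower in DMSO, by log2 1.01.

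**Figure D5:**
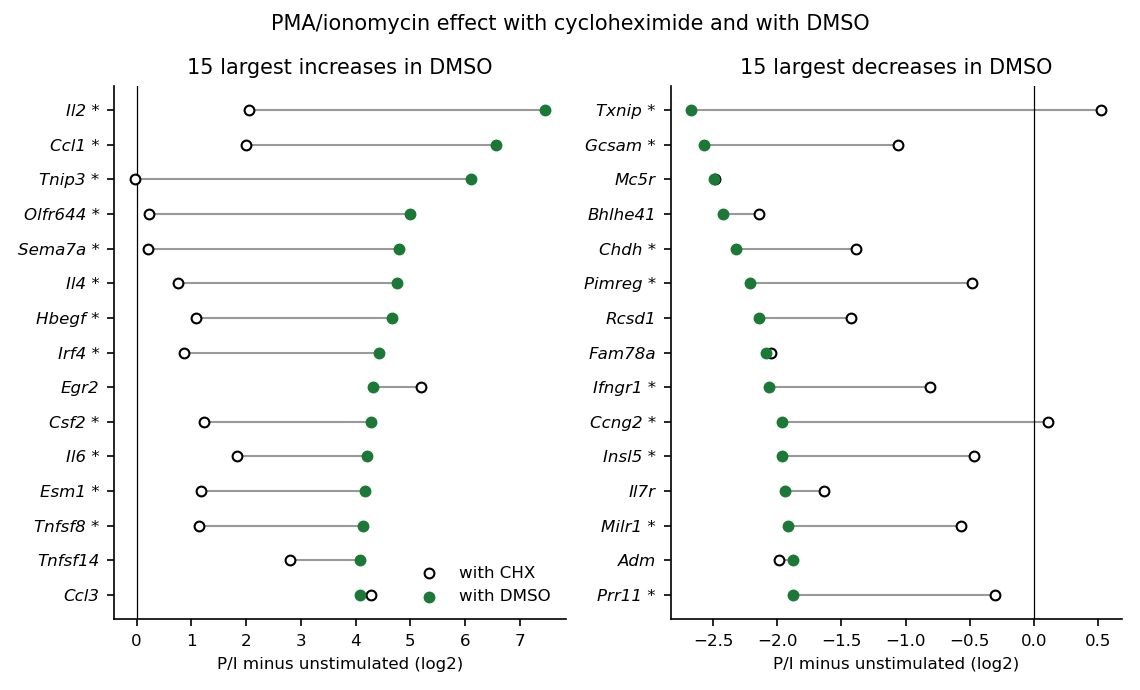
P/I effect (x axis, log2, P/I-stimulated minus unstimulated) with CHX (open points) and with DMSO (filled points) for the 15 largest increases (left) and the 15 largest decreases (right) in DMSO. An asterisk marks the 21 genes with an interaction call, and Txnip and Ccng2 cross zero while the paired points of Mc5r and Fam78a nearly coincide.

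The lists also separated in CHX. Of the 32 mitosis genes that fell in DMSO, 5 also fell with P/I in CHX, and 17 had an interaction call, with a median effect over the 46 genes of log2 -0.12 in CHX and -0.90 in DMSO. Of the 9 glycolysis genes that fell, 7 also fell in CHX, Slc2a1 by log2 1.06 and Pgam1 by log2 0.36. The same held for 8 of the 9 G1 and E2F genes that fell and for all 4 cytokine receptor genes that fell. Of the 21 rising members of the unfolded protein response and ATF4 list, 5 also rose in CHX and 5 fell, among them Herpud1 with log2 -0.82, and 16 had an interaction call. The 14 of 23 immediate early factors that rose in DMSO all rose in CHX too. Of these 14, 9 had an interaction call, and the median effect over the 23 genes was log2 2.91 in CHX and 1.19 in DMSO.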

How the data were processed

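The authors hybridized RNA of 12 EL-4 cultures, 3 biological replicates for each of 4 groups, to Affymetrix Mouse Gene 1.0ST arrays. They corrected background by robust multichip average with adjustment for probe sequence, normalized by quantiles in Partek software, and deposited log2 RMA values, which were used as given. All 35399 probe sets have a value in every array. The annotation gave 1 symbol to 21789 probe sets, several to 1621 and none to 11989. The 23410 with a symbol were fitted in R 4.3.3 with limma 3.58.1 (lmFit and eBayes, 4 group means, 8 residual and 3.63 prior degrees of freedom). Calls were made at 0.1 on p-values (two-sided) adjusted by Benjamini-Hochberg, the false discovery rate the study used. In the counts over genes, each of the 999 genes with several probe sets is read from its brightest one, by the mean of all 12 arrays. In 2 of these genes, probe sets were called in opposite directions. The procedure was tested on simulated data.

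Genes named are the 15 largest increases and 15 largest decreases that were called, did not overlap between groups and kept their sign in each replicate number, and for each list up to 3 called members with the smallest p in its main direction and up to 2 in the other. Predicted and small RNA genes were passed over. Further members were named after their values were seen. The members and the gene lists were chosen with earlier results of these data known. In all, 52 listed genes were not analysed here because no probe set carries their symbol alone.

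Deviations from the group means correlated at 0.574, 0.437 and 0.270 between stimulated and unstimulated DMSO arrays of the same number, and at most at 0.258 between different numbers, so same-numbered arrays were taken to pair. The calls, SEs and p-values given are from the fit without a replicate term, and the fit with the number as a block is an alternative. Promoter and microRNA sequences are from RefSeq (GRCm38.p6). The motifs searched on both strands were those given in the text and those of AP-1 (TGANTCA), the cAMP response element (TGACGTCA), κB (GGGNNTTTC), forkhead (GTAAACA) and E2F (GGCGGGAA). GGAAA was added after values were seen. TGANTCA was in 6.95% of all promoters, and in 7.29% and 1.1% of those of genes that rose or fell by more than 2-fold. Only the letters named with a sequence are in capitals, and other matches in it were left in lower case. Alternatives covered the samples fitted, the replicate block, scaling, the variance model, thresholds, filters and each array left out.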

Additional observations from a re-analysis of the deposited data

Results flagged for a closer look

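The P/I effect differed between CHX-treated and DMSO-treated cells for 21 of the 30 genes with the largest changes, by limma's interaction test (adjusted p from 6.53e-08 to 0.0698). The values that follow are the P/I effect in CHX minus that in DMSO, on the log2 scale. Of the increases, Tnip3 differed by -6.13, Il2 by -5.40, Olfr644 by -4.77, Sema7a by -4.58, Ccl1 by -4.57, Il4 by -4.00, Hbegf by -3.59, Irf4 by -3.57, Csf2 by -3.06, Esm1 by -3.0, Tnfsf8 by -3.0 and Il6 by -2.37. Of the decreases, Txnip differed by 3.20, Ccng2 by 2.07, Pimreg by 1.73, Prr11 by 1.57, Gcsam by 1.51, Insl5 by 1.5, Milr1 by 1.34, Ifngr1 by 1.25 and Chdh by 0.94. Each of these effects was smaller in size in CHX. The 30 genes were chosen for a large effect in the DMSO arrays, which enter the difference.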

How the results depend on the processing

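No count below changed by more than 1.5 times, and no named gene reversed, except as given. With the replicate block 2923 probe sets were lower, 1531 decreases were also lower in CHX, and 1680 increases and 1073 decreases had an interaction call. Decreases with an interaction call numbered 284 after median centring of the arrays and 323 at an adjusted p under 0.05. With arrays left out, singly or all 4 of a replicate number, probe sets higher ran from 967 to 2712, lower from 629 to 2857 and lower by more than 2-fold from 200 to 436. Increases also higher in CHX ran from 292 to 971, decreases also lower in CHX from 233 to 1500, increases with an interaction call from 328 to 1493 and decreases with one from 60 to 1133. Each low end came without the 4 arrays of replicate 3. Of 364 called genes that are named or in a list, 179 lost their call under at least 1 alternative, and 160 without the 4 replicate 3 arrays. Median centring and quantile normalization put the split at 2074 higher with 1413 lower and 2056 with 2350. Counts of small lists also moved when 1 array was left out. Cholesterol synthesis genes lower were 3, and 7 without unstimulated replicate 1. The fit to the 6 DMSO arrays alone gives no value in CHX.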

Other observations

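Genes known to respond to low oxygen through the HIF factors were noticed among the decreases, and a list of 28 of them was written after values were seen, so it gets no test. Of the 28, 16 were lower with P/I, 9 of them by more than 2-fold, and 3 were higher, with a median log2 change of -0.59, where 9.00% of all genes tested fell. Ak4, a mitochondrial adenylate kinase, measured log2 7.88, 7.4 and 7.45 in the P/I-stimulated arrays, against 9.45, 9.25 and 9.39 in the unstimulated arrays (log2 change -1.79 ± 0.14, SE; adjusted p = 5.53e-06 from limma). Egln3, a prolyl hydroxylase that marks HIF for destruction, measured log2 9.87, 10.16 and 9.58 with P/I, against 11.11, 11.33 and 11.33 without. The groups did not overlap in either gene. Plod1, a collagen lysyl hydroxylase, fell by log2 1.77, the mitophagy receptor genes Bnip3 and Bnip3l by log2 1.67 and 0.97, glycogen synthase, Gys1, by log2 1.49 and Egln1 by log2 1.25. The 3 that rose were the angiogenic factor Vegfa (log2 1.55), Pfkfb3 (1.47) and the carbonic anhydrase Car9 (0.73). Pgk1 (-0.17), Ldha (-0.05) and Slc2a3 (-0.06) were not called.

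MicroRNA genes were passed over by the rule for named genes. Of 308 probe sets with the symbol of a microRNA gene or microRNA host gene, 6 (1.95%) were higher and 7 (2.27%) lower with P/I. Over all probe sets tested the shares were 9.37% and 8.77%. The 308 had a median unstimulated value of log2 4.95. Among all probe sets from log2 4 to 5 unstimulated, 2.47% were higher and 0.79% lower. The probes read RNA of the gene and not the mature microRNA. Mir155, whose mature product acts in lymphocyte activation, measured log2 8.28, 7.51 and 8.03 with P/I, against 5.81, 6.29 and 6.13 without (log2 change 1.87 ± 0.21, SE; adjusted p = 9.23e-05 from limma). Mir212 measured log2 7.18, 7.47 and 7.48 with P/I, against 6.36, 6.75 and 6.70 without. Both were apart between the groups, and both kept their call under every alternative run. The neighbouring gene Mir132 had a log2 change of 0.43 (adjusted p = 0.0761). Among the decreases, the neighbouring genes Mir15b and Mir16-2 had log2 changes of -0.48 and -0.47 (adjusted p = 0.0218 and 0.0567), and these, with Mir132, lost their call under at least 3 alternatives each. The means of Mir15b and Mir16-2 were log2 4.47 and 4.81 with P/I, against 4.95 and 5.28 without, all at the low end of the scale. The mature sequences (RefSeq, GRCm38.p6) are shown 5′ to 3′ with the seed, bases 2 to 8, in capitals, because each neighbouring pair shares its seed.
miR-155-5p (chr16:84714143-84714165, plus strand): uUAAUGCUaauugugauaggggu
miR-212-3p (chr11:75173443-75173464, plus strand): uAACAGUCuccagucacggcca
miR-132-3p (chr11:75173723-75173744, plus strand): uAACAGUCuacagccauggucg
miR-15b-5p (chr3:69009775-69009796, plus strand): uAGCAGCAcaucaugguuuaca
miR-16-5p (chr3:69009918-69009939, plus strand): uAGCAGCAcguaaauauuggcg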
